A study of Mus musculus with 8 samples.

Results

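Eif4a2 and the genes of the eIF4F translation initiation complex were followed across 8 RNA-seq libraries of mouse subcutaneous fat. The group holds 10 of the 18022 genes in the count table and was taken by gene symbol. The members are Eif4a1, Eif4a2, Eif4a3, Eif4e, Eif4g1, Eif4g2, Eif4g3, Eif4b, Eif4h and Eif4ebp1, and all 10 passed the filter on low counts. Eif4a2 was chosen because it was higher in every library labelled KO, so its difference between the labels is described without a test. The other 9 members were chosen by family, and the question was whether they followed Eif4a2.

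The libraries came from C57BL/6J mice (back-crossed 4x), each library from its own mouse. There were 4 libraries labelled WT, from Pkd1(flox/flox) mice, and 4 labelled KO, with the genotype Pkd1adipo delta/delta, a deletion in adipocytes. Pkd1 here means protein kinase D1, the product of Prkd1. The labels name no Cre driver and no age, and all animals carried the strain background given above. Letters and a number, such as KO3, name a library by its label and replicate. WT counts and KO counts are the reads of the libraries so labelled, in the order of replicates 1 to 4.

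eIF4F is the complex that recruits the ribosome to capped messenger RNA. In it eIF4E binds the cap, eIF4G is the scaffold, and eIF4A is a DEAD-box helicase that unwinds the leader of the message with the help of eIF4B and eIF4H. The 4E-BP proteins hold eIF4E back from eIF4G until the kinase mTORC1 phosphorylates them, and in fat cells insulin acts through this step.

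The libraries held between 2617755 and 2873457 reads, and values below are CPM, read counts scaled to library size with TMM factors. Prkd1 had 72 to 94 reads under the WT label and 71 to 108 under the KO label, a log2 fold change of 0.06 ± 0.15 (SE). The counts cover the whole gene and whole tissue, so they did not check the labels, and directions below are between libraries as labelled. All 15 adipocyte markers were detected, with a sum between 106600 and 131800 CPM in the 8 libraries. The summed 23 skeletal muscle markers stood at 474.2 to 958.2 CPM under the WT label. KO1, KO2 and KO4 had 4044, 2652 and 4570 CPM, whereas KO3 had 810.4 CPM, within the WT range. Of 12 B and T cell markers, 11 were in the table and only 2 above the count filter. All 11 together, most of them below the filter, summed to 77.7 to 142.8 CPM in WT and 51.9 to 71.0 CPM in KO libraries, without overlap. Among single tested genes, KO was lower without overlap for 1.39%. Of the 2 tested markers, 0 passed an adjusted p of 0.05 (edgeR quasi-likelihood). The part of B and T cell markers in the differences below was not tested. Brain and nerve markers summed to 771.4 CPM in KO1 and to 277.4 to 365.3 CPM elsewhere. In bulk tissue, fewer cells of a type and less RNA per cell cannot be told apart.

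The coding sequences of the eIF4A helicases show which reads can be told apart. The stretch around the codons of the DEAD motif is printed 5′ to 3′ for the 3 helicases and for Eif4a-ps4, an intronless pseudogene of Eif4a1 that has its own entry in the count table. That entry was matched to GENCODE by symbol, since its Ensembl ID is not in that release, so the counted interval may differ from the locus shown. Capitals mark bases that differ from Eif4a2.
Eif4a2: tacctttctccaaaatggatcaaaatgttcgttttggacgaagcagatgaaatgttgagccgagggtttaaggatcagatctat
Eif4a1: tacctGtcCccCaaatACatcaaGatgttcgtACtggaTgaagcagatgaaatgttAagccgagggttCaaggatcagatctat
Eif4a-ps4: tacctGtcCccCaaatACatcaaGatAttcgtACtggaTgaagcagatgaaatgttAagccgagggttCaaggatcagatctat
Eif4a3: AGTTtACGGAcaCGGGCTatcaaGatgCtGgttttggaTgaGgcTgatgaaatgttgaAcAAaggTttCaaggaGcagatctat
The stretches are from GENCODE M21 transcripts on GRCm38, a later build than the mm9 that the submitters name. For Eif4a2 the stretch joins exons 5 and 6 within chr16:23110147-23110310 on the plus strand. For Eif4a1 it joins exons 5 and 6 within chr11:69668677-69669084 on the minus strand, and for Eif4a3 exons 6 and 7 within chr11:119294014-119294388 on the minus strand. Eif4a-ps4 holds it without a break at chr1:60704439-60704522 on the plus strand.

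Over these 84 bases Eif4a1 differed from Eif4a2 at 11 positions and Eif4a3 at 27. Over the whole coding sequence Eif4a1 and Eif4a2 were 77.8% identical, and no pair of the 10 members shared a run of 50 bases in any annotated transcript. Eif4a-ps4 was another matter. It has the length of the Eif4a1 coding sequence, 1218 bases, and differed from it at 1 base, which lies in the stretch printed above. Reads from the coding sequence of Eif4a1 and from this pseudogene can therefore hardly be separated, while those of Eif4a1 and Eif4a2 can. The longest coding transcript of Eif4a1 has 1774 bases, so part of it lies outside the coding sequence that the pseudogene matches.

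Eif4a2 (ENSMUSG00000022884, chromosome 16), the helicase paralogue that the group was built around, had WT counts of 380, 395, 346 and 351. Its KO counts were 713, 654, 696 and 533. The groups did not overlap: the lowest library labelled KO was KO4 at 190.1 CPM and the highest labelled WT was WT2 at 157.2 CPM. The mean level was 137 ± 15.0 CPM under the WT label and 231 ± 31.5 CPM under the KO label (SD, n = 4 each). This is a ratio of 1.69 and a fitted log2 fold change of 0.75 ± 0.14 (SE). Groups that do not overlap, with KO higher, were found for 223 of 14556 tested genes, or 1.53%. Since the gene was chosen for this contrast, nothing is read from that share. Of all tested genes, 231 had a log2 fold change as large, Eif4a2 included, and of the 4046 with a mean of at least 50 CPM, 18.

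**Figure D1:**
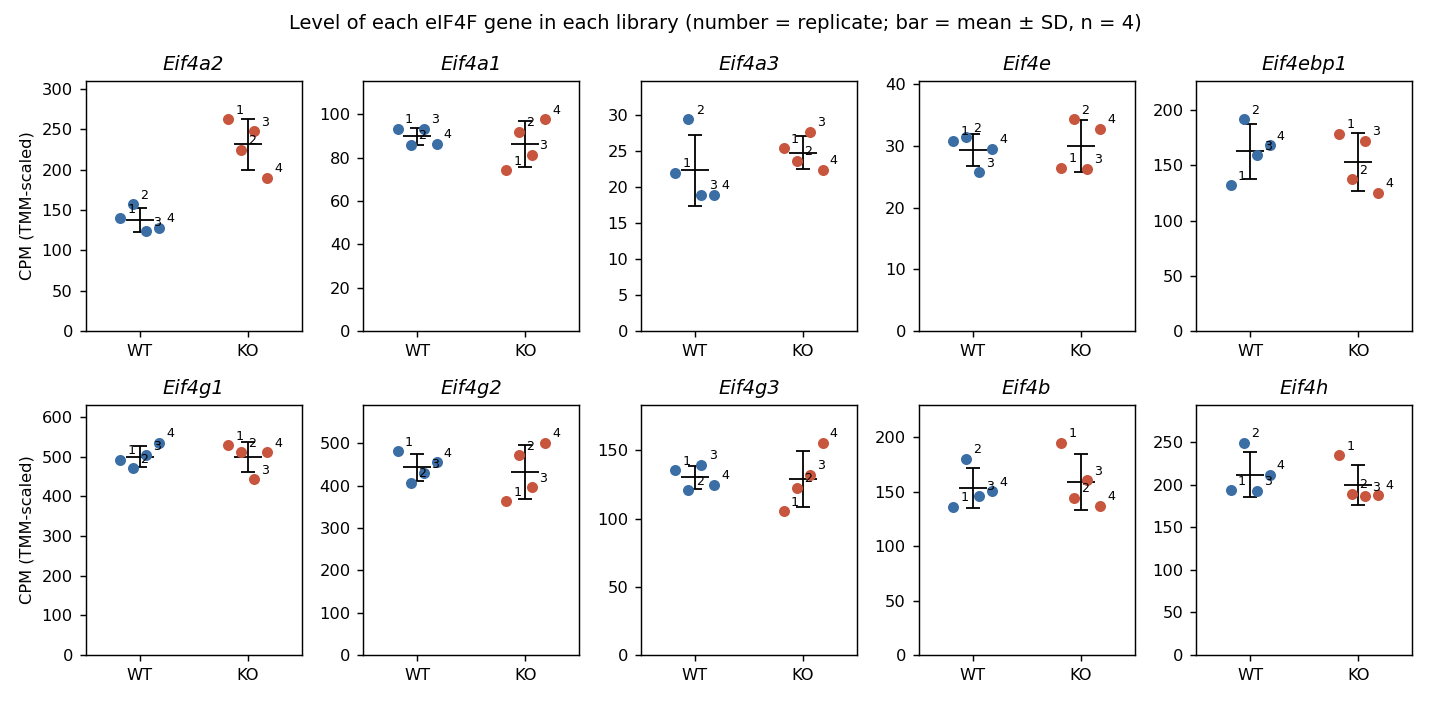
Level of each of the 10 genes in CPM (vertical axis, starting at 0) in each library, with libraries labelled WT in blue and KO in red. Points carry the replicate number and bars are mean ± SD, n = 4. Only for Eif4a2, of these 10, do the groups not overlap, with every library labelled KO above 157.2 CPM.

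KO3 had 247.5 CPM of Eif4a2, within the 190.1 to 262.3 CPM of the KO libraries with high muscle markers. Its muscle sum lay within the WT range, but both muscle genes named here lay above theirs. Myoglobin (Mb) stood at 64.0 CPM in KO3 and at 40.5 to 57.3 CPM under the WT label. Myh2 stood at 8.89 CPM in KO3 and at 0.80 to 4.65 CPM under the WT label. KO4, with the highest muscle sum, had the lowest Eif4a2 level of its label. Against the 4 libraries labelled WT, KO3 alone gave a log2 fold change of 0.85. With the muscle sum as a covariate the value was 0.91. With each library left out in turn it lay between 0.69 (without KO1) and 0.84 (without KO4). Apart from KO3, every library labelled KO lay above the WT range of the muscle sum, so sum and label are nearly confounded. What part muscle RNA has in the Eif4a2 difference was not tested. Mb had a log2 fold change of 1.09 ± 0.20, and 0.34 with the muscle sum as a covariate. Since Mb is itself part of that sum, a fall was built into this fit, and it is no comparison for Eif4a2.

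**Figure D2:**
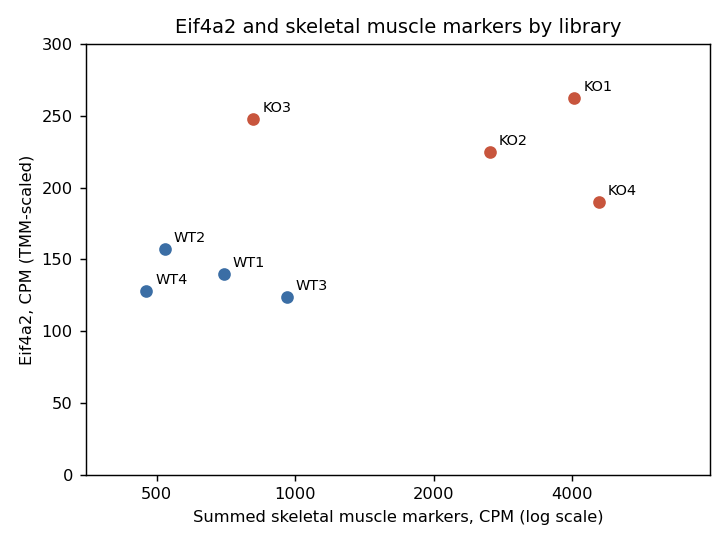
Eif4a2 in CPM (vertical axis) against the summed skeletal muscle markers in CPM (horizontal axis, log scale), 1 point per library, WT in blue and KO in red. KO3 stands at 810.4 CPM of muscle markers and 247.5 CPM of Eif4a2, beside the libraries labelled WT on the horizontal axis and above them on the vertical one.

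Eif4a1 (ENSMUSG00000059796, chromosome 11), the other cytoplasmic helicase of eIF4F, did not follow Eif4a2. It had WT counts of 254, 216, 261 and 237 and KO counts of 202, 268, 229 and 274. The groups overlapped, and KO4 was the highest and KO1 the lowest of the 8 libraries, so the library with the most Eif4a2 had the least Eif4a1. The means were 89.7 ± 4.07 and 86.4 ± 10.5 CPM (SD, n = 4), a log2 fold change of -0.06 ± 0.12 (SE). The 95% interval ran from -0.31 to 0.20, that is, up to a 1.15-fold rise (adjusted p = 0.998, edgeR quasi-likelihood).

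More reads had been counted for the pseudogene than for the gene. Eif4a-ps4 had between 1.89 and 2.24 reads for each read of Eif4a1, with WT counts of 511, 415, 494 and 474 and KO counts of 453, 559, 439 and 542. The ratio was highest in KO1 and lowest in WT3. A second copy, Gm5513, had 10 to 18 reads. Summed with both copies, Eif4a1 stood at 270.4 ± 13.1 and 268.5 ± 29.1 CPM (SD, n = 4). The log2 fold change of the sum was -0.01 with a 95% interval from -0.27 to 0.25 (adjusted p = 0.998, edgeR quasi-likelihood). For Eif4a2, 2 processed pseudogenes share 50-base runs with it, Gm2999 and Gm18949, and neither has an entry in the count table given here.

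Which of the paralogues had more reads depends on where the reads of the pseudogene are put. Eif4a2 made up 60.3% ± 3.18 of the reads of Eif4a1 and Eif4a2 under the WT label and 72.5% ± 5.19 under the KO label (SD, n = 4). With the copies of Eif4a1 added, the shares were 33.6% ± 3.0 and 46.2% ± 5.99. In single libraries the share without copies ran from 57% (WT3, exact 95% binomial interval 53.0% to 61.0%) to 77.9% (KO1, 75.1% to 80.6%). These intervals cover counting error only. The share rests on Eif4a2, so its difference of 12.2 percentage points is again a description.

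Eif4a3 (ENSMUSG00000025580) is the third paralogue and works in the nucleus as a core subunit of the exon junction complex, outside eIF4F. It had WT counts of 60, 74, 53 and 52 and KO counts of 69, 69, 78 and 63, with all libraries labelled KO inside the range of WT in CPM. The log2 fold change was 0.15 ± 0.17 (SE), the largest of the 9 members besides Eif4a2. Its 95% interval from -0.22 to 0.53 reached a 1.44-fold rise (adjusted p = 0.998, edgeR quasi-likelihood). Summed with Gm5576, Gm5580 and Gm8994 (near copies that share 177 to 228 runs of 50 bases with it), it had 124 to 172 reads a library and the value turned to -0.05 ± 0.16.

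The cap-binding side of the complex showed no difference past the spread of the libraries. Eif4e (ENSMUSG00000028156) had WT counts of 84, 79, 72 and 81 and KO counts of 72, 100, 74 and 92. Its level was 29.4 ± 2.56 and 30.0 ± 4.18 CPM, and the log2 fold change 0.03 with a 95% interval from -0.29 to 0.35. With its copy Gm7327 added the value was -0.02. Eif4ebp1 (ENSMUSG00000031490), the inhibitor that sequesters eIF4E, had WT counts of 360, 482, 445 and 462 and KO counts of 486, 400, 485 and 351. It varied more within a label than between them, from 125.2 CPM in KO4 to 191.8 CPM in WT2, and its log2 fold change was -0.09 with an interval from -0.41 to 0.24.

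The scaffolds Eif4g1 and Eif4g2 had the most reads of the 10 members. Eif4g1 (ENSMUSG00000045983), the main scaffold, had 1182 to 1466 reads under the WT label and 1246 to 1490 under the KO label. Its means of 500.2 ± 26.8 and 498.5 ± 37.9 CPM (SD, n = 4) were the closest pair of the group, with a log2 fold change of -0.005 and an interval from -0.27 to 0.26. Eif4g2 (ENSMUSG00000005610), a relative that lacks the eIF4E-binding part, had WT counts of 1313, 1024, 1201 and 1251 and KO counts of 987, 1374, 1117 and 1406. The libraries labelled KO thus spread on both sides of those labelled WT, and the log2 fold change was -0.03 (interval -0.33 to 0.26). Eif4g3 (ENSMUSG00000028760), the second full-length scaffold, had 304 to 390 and 287 to 436 reads and a log2 fold change of -0.01 (interval -0.30 to 0.27).

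The helicase cofactors did not follow Eif4a2 either. Eif4b (ENSMUSG00000058655) had WT counts of 372, 453, 410 and 413 and KO counts of 530, 421, 452 and 385, with KO1 alone above the libraries labelled WT. Its log2 fold change was 0.05 ± 0.14 (SE; interval -0.25 to 0.35), and 0.07 with the copy Gm4784 added. Eif4h (ENSMUSG00000040731) had WT counts of 527, 626, 540 and 580 and KO counts of 637, 552, 524 and 528. KO2, KO3 and KO4 lay below every library labelled WT in CPM and KO1 lay near the top, and the log2 fold change was -0.09 ± 0.13 (SE; interval -0.37 to 0.20).

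Across the 9 members besides Eif4a2, 3 log2 fold changes were positive and 6 negative, with a median of -0.01 beside 0.00 over all tested genes. Of the 9, 0 passed 0.05 after adjustment (edgeR quasi-likelihood), where 0 of 14556 genes (0%) were higher and 0 lower. At an unadjusted p under 0.05 there were 0 of the 9, beside 653 of all genes (4.49%), and 0 with DESeq2, the likelihood ratio test, limma-voom or an exact test with one common dispersion. The groups overlapped for all 9, while over all tested genes they did not overlap for 2.92% (KO lower for 1.39%). In the 9, the 95% intervals together ran from a 0.752-fold to a 1.44-fold level. In the authors' deposited table, the adjusted p of each of the 9 was 1 and their log2 fold changes lay between -0.09 and 0.15. There Eif4a2, which had been chosen for its difference, had a log2 fold change of 0.75.

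**Figure D3:**
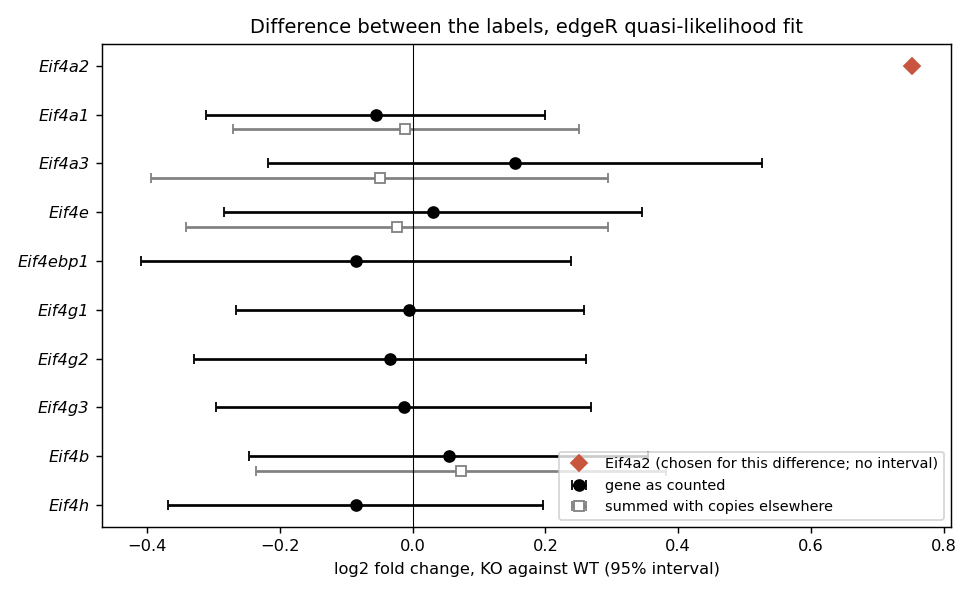
Log2 fold change between libraries labelled KO and WT (horizontal axis) for each gene, with 95% intervals from the edgeR fit. Filled circles are genes as counted, open squares the sums with near copies elsewhere in the genome, and the red diamond is Eif4a2, shown without an interval because it was chosen for this difference. The intervals of the other 9 all include 0 and end at or below 0.53.

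Per length, the members covered a wide range of levels under the WT label. On an RPKM scale, with the longest annotated coding transcript as length, Eif4g1 stood highest at 88.7 ± 4.76, followed by Eif4ebp1 at 81.6 ± 12.4 and Eif4h at 77.7 ± 9.67 (SD, n = 4). These neighbours differed by less than their SDs summed. Eif4g2 at 55.5 ± 4.04, Eif4a2 at 50.6 ± 5.53 and Eif4a1 at 50.6 ± 2.30 lay within an SD or so of each other, and Eif4b followed at 39.8 ± 4.88. Eif4g3 (16 ± 1.07) and Eif4a3 (14.8 ± 3.28) lay lower and within their SDs, and the cap-binding subunit Eif4e was lowest at 5.89 ± 0.51 RPKM. In libraries labelled KO, Eif4a2 stood at 85.3 ± 11.6 RPKM, beside Eif4g1 at 88.4 ± 6.72. With all annotated exons as length, Eif4ebp1 came first at 74.2 ± 11.2, Eif4g1 second at 68.5 ± 3.68, and Eif4e stayed last at 4.89 ± 0.43 RPKM. The order of the upper members thus depends on the length used, and that of Eif4a1 on its pseudogene.

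Some of the 9 members varied together over the libraries. Eif4a1 and Eif4g2 rose and fell together over the 8 libraries, against Eif4b. Of 36 pairs, 3 passed an adjusted p of 0.05 for Pearson's r of log2 CPM by exact permutation. The share among pairs of other genes was not computed, so whether such pairs are more frequent among these members was not tested. Eif4g2 and Eif4b had r = -0.92 (exact permutation p = 0.00107, adjusted p = 0.0384; Spearman's rho = -0.93, adjusted p = 0.0402), and r = -0.81 without the 2 libraries farthest from the median of Eif4g2. Eif4a1 and Eif4g2 had r = 0.91 (exact permutation p = 0.00241, adjusted p = 0.0387; rho = 0.86, adjusted p = 0.0643), and 0.73 without the 2 libraries farthest from the median of Eif4a1. Eif4a1 and Eif4b had r = -0.89 (exact permutation p = 0.00322, adjusted p = 0.0387; rho = -0.86, adjusted p = 0.0643), and -0.70 without them. After the label means were removed these values were -0.92, 0.91 and -0.89. The 2 pairs with Eif4a1 thus did not pass by rank, and with upper quartile scaling they did not pass for r either (adjusted exact permutation p = 0.0567 each). By rank, Eif4b and Eif4ebp1 passed beside Eif4g2 and Eif4b, with rho = 0.95 (exact permutation p = 0.00114, adjusted p = 0.0402) and r = 0.85.

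**Figure D4:**
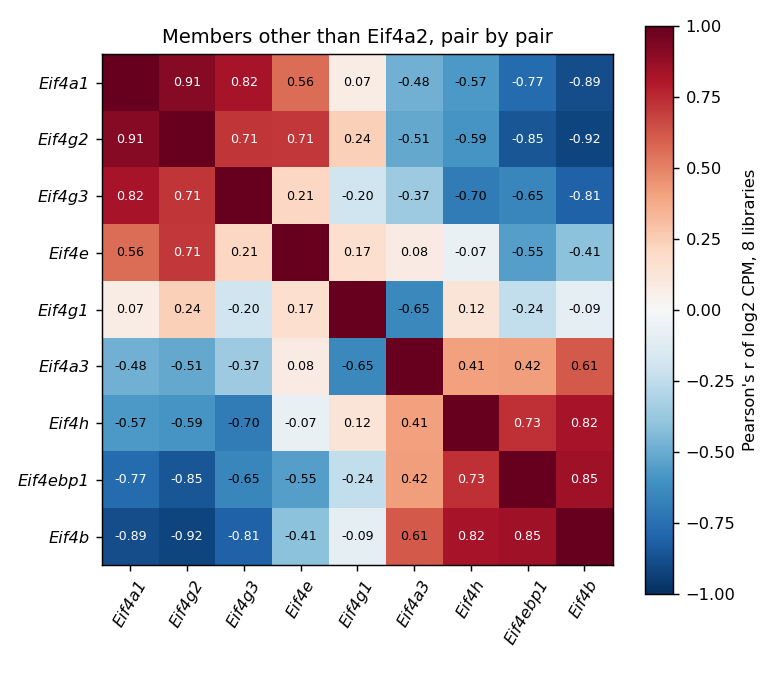
Pearson's r of log2 CPM over the 8 libraries for each pair of the 9 members besides Eif4a2 (color from -1 in blue to 1 in red, value printed in each cell). Eif4a1 and Eif4g2 (0.91) form a corner opposite to Eif4b, whose values with them are -0.89 and -0.92.

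A property of the libraries moved with this pattern in part. Over 12142 genes, the deviation of WT2 from the mean of the 8 libraries had a Spearman's rho of 0.36 with the GC content of the transcript and -0.33 with its length, and KO1 had 0.23 and -0.12. KO2 had -0.40 and 0.18, WT1 -0.33 and 0.11, and KO4 -0.21 and 0.13. Eif4b was highest in KO1 and WT2 and lowest in WT1 and KO4. Other libraries departed from this order. WT4 had a rho of 0.235 with GC content, beside 0.233 in KO1, but Eif4b at 150.7 CPM beside 195 CPM. KO2 had the lowest rho with GC content but Eif4b at 144.5 CPM, above the 136.5 CPM of WT1. The part of GC content and length in the correlations was not tested. The libraries labelled KO held both signs. KO1 and KO3 (0.15), on the side of high GC, had 262.3 and 247.5 CPM of Eif4a2, and KO2 and KO4, on the other, 224.5 and 190.1 CPM. Under the WT label, WT2 and WT4 on the side of high GC had 157.2 and 128 CPM, and WT1 and WT3 (-0.115) had 139.5 and 123.7 CPM. The part of GC content in the Eif4a2 difference was not tested.

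The genes whose levels over the 8 libraries were most like those of Eif4a2, by Pearson's r of log2 CPM, were Fam168a (r = 0.96, rho = 0.91), Trip10 (r = 0.95, rho = 1), Utp11l (r = 0.95, rho = 0.93) and Agpat4 (r = 0.95, rho = 0.98). Fam168a had 214 to 224 reads under the WT label and 253 to 269 under the KO label, and Agpat4 20 to 24 and 31 to 45. These 4 were picked from 14555 genes for their likeness, so they share the split between labels by choice. None of the other members came near: Eif4a3 ranked 568 with r = 0.65, Eif4b 2047 with r = 0.44, and Eif4a1 13304 with r = -0.54.

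Genes around Eif4a2 on chromosome 16 were read out as well, since Adipoq, the gene of adiponectin, starts 32.4 kb beyond its end (GENCODE M21, GRCm38). Of 8 tested neighbours, the log2 fold change was above 0 for 3 and below 0 for 5, with 0 past the adjusted threshold of 0.05 and 0 at an unadjusted p under 0.05 (edgeR quasi-likelihood test). Their median was -0.07, beside 0.00 over all genes. Rfc4, a subunit of the clamp loader of DNA replication, lies between Eif4a2 and Adipoq. It had WT counts of 13, 12, 7 and 6 and KO counts of 13, 15, 18 and 10, a log2 fold change of 0.49 with an interval from -0.25 to 1.22. Exons of Rfc4 and Eif4a2 overlap by 194 bases on opposite strands, and the library kit does not mark strand, so reads there cannot be told apart.

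Adipoq itself had 3648 to 4352 reads under the WT label. It had 4792, 2972, 4598 and 2906 in KO1 to KO4, so it was high and low within the label, with a log2 fold change of -0.12 (interval -0.54 to 0.29). On the other side lie liver genes. Kng1, a kininogen, had 99 and 63 reads in WT1 and WT4 and 1 to 31 in the other libraries. Ahsg, the liver glycoprotein fetuin-A, had 215 and 186 reads in WT1 and WT4 and 0 to 74 in the others. Fetub and Hrg, 2 more liver genes, had 0 to 48 reads and were not tested. WT1 and WT4 were also the libraries with the highest sum of 12 liver markers, 4118 and 3153 CPM beside 1408 to 2535 in the others. That sum includes Ahsg. Kng2 (-0.28 ± 0.16), Tbccd1 (0.12 ± 0.18), Dnajb11 (0.06 ± 0.13) and St6gal1 (-0.01 ± 0.14, log2 fold change ± SE) completed the row.

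Regulators of eIF4F outside the 10 members had small values. Of 16 tested, 9 were positive and 7 negative, with a median log2 fold change of 0.04, and 0 passed an adjusted p of 0.05 or an unadjusted p of 0.05 (edgeR quasi-likelihood test). The smallest p belonged to Mknk1, a kinase that phosphorylates eIF4E, with 86 to 96 reads under the WT label and 99 to 119 under the KO label (log2 fold change 0.22 ± 0.13). Pabpc4, a poly(A)-binding protein, had 0.20 ± 0.13 and Eif4e3, a cap-binding paralogue, 0.15 ± 0.11. Mknk1 and Eif4e3 were higher in 4 of 4 libraries labelled KO than in any labelled WT, as were 1.53% of all tested genes, and both had been named for a small p. Of 33 other initiation factors, 12 were positive and 21 negative (median -0.05), with 0 past either threshold. Their members with the smallest p were Eif6 (-0.31 ± 0.16), a factor that keeps the large ribosomal subunit apart, and the recycling factors Mcts1 (0.29 ± 0.18) and Denr (-0.21 ± 0.14). With the muscle sum as a covariate these became -0.05 for Eif6, -0.07 for Mcts1 and -0.37 for Denr.

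Of 13 elongation and termination factors, 4 were positive and 9 negative (median -0.05). In the edgeR quasi-likelihood test 0 passed the adjusted threshold of 0.05 and 2 had an unadjusted p under 0.05, beside 4.49% of all tested genes. Eef1a2, the elongation factor isoform of muscle and neurons, had WT counts of 6, 4, 11 and 1 and KO counts of 180, 47, 12 and 81. It was high in the libraries with high muscle sums, KO1, KO2 and KO4, and its log2 fold change of 3.79 ± 1.01 was 0.51 with the muscle sum as a covariate and 1.05 for KO3 alone. KO1, with the most Eef1a2, was also the library with the highest brain and nerve sum, whose part was not tested. Gspt2, a termination factor, had 13 to 25 and 10 to 15 reads (-0.66 ± 0.28). Eif5a had -0.20 ± 0.14.

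Of 20 mTORC1 pathway genes, 11 were positive and 9 negative, with a median of 0.00, 0 past the adjusted threshold of 0.05 and 2 at an unadjusted p under 0.05, beside 4.49% of all tested genes (edgeR quasi-likelihood test). Ddit4, a stress-induced inhibitor of mTORC1, had 178 to 281 reads in the WT libraries and KO counts of 130, 107, 206 and 155. KO3 stood among the WT libraries, and the log2 fold change was -0.65 ± 0.21, or -0.19 with KO3 as the only library labelled KO. Sesn2, another inhibitor, had -0.36 ± 0.16 and Lamtor2, a part of the lysosomal scaffold, -0.30 ± 0.14, and both were closer to 0 for KO3 alone (-0.07 and -0.06).

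Of 17 genes of the integrated stress response, which limits initiation through eIF2, 6 were positive and 11 negative (median -0.05), with 0 past the adjusted threshold of 0.05 and 1 at an unadjusted p under 0.05 (4.49% of all tested genes). That 1 was Ppp1r15b, a subunit of the eIF2 phosphatase, with a log2 fold change of 0.31 ± 0.12. It had 321, 301, 303 and 264 reads in the KO libraries, 3 of which lay above every WT library in CPM. Eif2ak4, the amino-acid-sensing kinase GCN2, had -0.27 ± 0.18 and Atf5 -0.22 ± 0.15.

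Complexes in which the eIF4A paralogues or their relatives act gave like values. Of 16 genes around the CCR4-NOT deadenylase, 9 were positive and 7 negative (median 0.04), with Cnot3 at 0.34 ± 0.16, Cnot2 at -0.22 ± 0.13 and Tnrc6c at 0.16 ± 0.13. Of 13 genes of the exon junction complex and nonsense-mediated decay, where Eif4a3 works, 9 were positive and 4 negative (median 0.07), with Rnps1 at 0.19 ± 0.15, Smg6 at 0.12 ± 0.12 and Upf1 at 0.13 ± 0.14. Neither list had a member past an adjusted or unadjusted p of 0.05 (edgeR quasi-likelihood test). Of 28 other DEAD-box helicases, 11 were positive and 17 negative (median -0.02), with 0 past the adjusted threshold of 0.05 and 1 at an unadjusted p under 0.05 (4.49% of all tested genes). That 1 was Ddx5, an RNA helicase of splicing and transcription, with 928 to 1153 reads under the WT label and 1227 to 1529 under the KO label (0.26 ± 0.12). Its close paralogue Ddx17 had 0.24 ± 0.14 and Ddx39 -0.17 ± 0.11. Over the 24 genes named from these lists, the muscle sum as a covariate turned the sign of 2, Mcts1 and Atf5, made 7 values larger and 6 smaller by over 1.5 times, and left 9 within that factor.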

How the data were processed

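Poly(A) RNA was sequenced from unstranded libraries (NEBNext Ultra), per the labels' protocols. FastQC, Bowtie2, edgeR and the build mm9 are listed without role or version, per the submitters' processing notes. Unnormalized count values for each Ensembl gene were deposited by the authors, with a table of log2 fold changes, log2 mean expression, p-values and adjusted p-values for KO against WT, per the file headers. The sources used here do not name the counting tool or gene annotation. Groups and replicate numbers come from the sample titles, and columns were matched by mouse label.

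Labels were compared by quasi-likelihood in edgeR 4.0.16 (R 4.3.3) on the deposited counts. TMM scaling was used, filterByExpr left 14556 genes, and the robust fit had the label as the only term and Benjamini-Hochberg adjustment over all tested genes. SE was taken from the log2 fold change and F, and intervals are 95%. No batch is given in the sources used here. Shared 50-base runs, transcript lengths and stretches come from GENCODE M21. Copies were matched by symbol. For Eif4a-ps4 the Ensembl ID in the count table is not in that release.

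Alternatives were DESeq2 1.42.0, the likelihood ratio test, limma-voom (limma 3.58.1), an exact test with one common dispersion, other scalings and filters, each library left out, KO3 as the only library labelled KO, the replicate block, the muscle marker sum and 1 surrogate variable (sva 3.50.0). Sums with copies and rescaled correlations were added after seeing the data. Named were the 10 members, up to 3 genes of smallest p per pathway list, the neighbours, the 4 genes most like Eif4a2, Prkd1, Myh2 and Mb. The members and lists were chosen with earlier results of these data known.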

Additional observations from a re-analysis of the deposited data

Results flagged for a closer look

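Of 118 groups of 4 libraries (the named genes and the copies, each label apart), 6 had a library far from the other 3 by Dixon's criterion, about the 1 in 20 that chance flags. Among the members, Eif4h was at 234.3 CPM in KO1 and between 186.3 and 189.5 CPM in the other libraries labelled KO. Eif4e3 was at 118.8 CPM in KO2, beside 117.0 to 117.3 CPM, a gap small in size in a tight group. Atf5 and Rnps1 were highest in WT4, at 110.2 and 26.99 CPM, beside 95.5 to 96.5 and 21.8 to 22.3 CPM. Utp11l was at 20.32 CPM in KO4, beside 21.3 CPM in the others. Snord2, which lies in an intron of Eif4a2, was at 0.0 CPM in KO1, where 0 reads were counted, beside 5 reads in each other library labelled KO.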

How the results depend on the processing

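Eif4a2 was left out of the count of members past the threshold. None of the other members passed an adjusted p of 0.05 under any of the 23 alternatives. Genes called higher and lower over the whole table were 0 and 0 in the quasi-likelihood test, 32 and 4 with DESeq2, 54 and 4 with the likelihood ratio test, 140 and 84 in the exact test with one common dispersion, and 1 and 1 with 1 surrogate variable. With single libraries left out, 0 to 50 were higher (50 without KO3) and 0 lower. Of the named genes, Eef1a2, Myh2 and Mb passed an adjusted p of 0.05 with DESeq2, the likelihood ratio test and the exact test. Myh2 and Mb also passed without KO3, and Ahsg and Kng1 passed in the exact test only. The log2 fold change of Eif4a2 lay between 0.69 and 0.91 under all alternatives, and its share differed by 10.4 to 14.4 percentage points with a library left out.

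Log2 fold changes of some genes changed sign, among them Mcts1, Atf5 and Rnps1 (0.29, -0.22 and 0.19 in the quasi-likelihood test), and the cause was not tested. With library size only, Eif4g1, Eif4g3 and St6gal1 had 0.018, 0.009 and 0.008, and with the stricter filter (at least 50 reads in 4 libraries) Eif4g1 had 0.001. With KO3 as the only library labelled KO, the values were -0.159 for Eif4e, 0.022 for Eif4g3, 0.082 for Eif4ebp1, -0.02 for Mcts1, 0.099 for Atf5, -0.011 for Rnps1, -0.203 for Tbccd1, -0.175 for Dnajb11, 0.139 for Adipoq, 0.003 for St6gal1 and -0.022 for Prkd1. With the muscle sum as a covariate they were -0.056 for Eif4e, 0.138 for Eif4ebp1, -0.066 for Mcts1, 0.052 for Atf5, -0.266 for Tbccd1, -0.157 for Dnajb11, 0.11 for Adipoq, 0.091 for St6gal1 and -0.051 for Prkd1. Summed with copies, Eif4a3 had -0.05 and Eif4e -0.023. With single libraries left out, the values ranged from -0.118 to 0.011 for Eif4a1, -0.043 to 0.089 for Eif4e, -0.034 to 0.048 for Eif4g1, -0.11 to 0.042 for Eif4g2, -0.114 to 0.072 for Eif4g3, -0.056 to 0.139 for Eif4b, -0.171 to 0.001 for Eif4h, -0.175 to 0.001 for Eif4ebp1, -0.093 to 0.074 for St6gal1 and -0.024 to 0.145 for Prkd1. With upper quartile scaling, Eif4a1 with Eif4g2 (r = 0.89) and Eif4a1 with Eif4b (r = -0.861) had an adjusted exact permutation p of 0.0567.

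Same-numbered libraries had correlations of deviations from their label means between -0.29 and -0.14. These values show no positive likeness by replicate number, but they cannot show that the libraries were unpaired. With the replicate block, 0 genes were called higher and 0 lower, and 0 of the 9 members. At this depth, the upper ends of the 95% intervals of the 9 members lay between 1.15-fold and 1.44-fold (Eif4a3), so rises within them were not excluded.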

Other observations

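The count table has entries for 2 small nucleolar RNA genes placed within Eif4a2. Snord2 had 4 reads over the libraries labelled WT and 15 over those labelled KO, and the second entry, which has no symbol in the file, had 7 and 15. Both had 0 reads in KO1, the library with the most Eif4a2 reads. Neither passed the filter on counts, and no test was made.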
